A study of Mus musculus with 26 samples.

Results

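Prdm14-/- mouse embryonic stem cells (mESCs) were compared with FH-Mtgr1 mESCs, a replicated reference that carries neither a Prdm14 deletion nor overexpressed Prdm14. The members are 5 of the 15 RNA-seq libraries, in a series of 26 samples: Prdm14-/- clones G6 and F10 on one side (n = 2) and FH-Mtgr1 clones A3, C1 and C3 on the other (n = 3). All cells came from the Stella:GFP reporter line, were maintained in 2i+LIF medium and were moved for 5 days to medium with serum and leukemia inhibitory factor (serum+LIF). Each Prdm14-/- clone grew from 1 cell after Cas9 cutting of Prdm14 and keeps its own Mtgr1. Each FH-Mtgr1 line carries a Cas9-made Mtgr1 deletion together with a transgene for FLAG- and HA-tagged Mtgr1, so that the reference is a rescued knockout and not an unedited cell. The single wt serum+LIF library (n = 1) is given beside it as a description. Because each side has its own clones and its own history, genotype and clone cannot be told apart in full, and the labels do not say that libraries of a group came from separate cultures, so that p-values measure the spread between these libraries.

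Prdm14 is a zinc finger protein with a PR domain that binds DNA and represses genes in pluripotent cells and in primordial germ cells. Mtgr1, encoded by Cbfa2t2, belongs to the ETO family of corepressors, which do not bind DNA by themselves and bring histone deacetylases to their targets. In mESCs, Prdm14 is known to hold back FGF receptor signalling and DNA methyltransferases, and cells that leave the naïve state switch on epiblast genes such as Fgf5 and Pou3f1.

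Expression is given as RPKM, in which the reads of a gene are divided by its length and by the counted reads of the library. Whole reads computed back from them added up to between 11596927 and 21218414 per library. Of 24015 genes, 12479 passed a filter (1 RPKM or more in 2 or more of the 5 libraries) and were tested as log2(RPKM + 0.5). In this text, a fold change is Prdm14-/- minus FH-Mtgr1 on that scale with its standard error (SE), which understates the change of low genes. An adjusted p comes from limma with Benjamini-Hochberg adjustment over all genes tested, and a gene is called when it is below 0.05. On these terms 5141 genes were called, 41.2% of those tested. Of these, 2961 were higher in Prdm14-/- cells (23.7% of those tested) and 2180 lower (17.5%). These shares are the background for the counts of each gene list below. With median-of-ratios scaling the split was 2647 higher and 2595 lower. At least 2-fold differences were found for 1223 of the genes called higher and 640 of those called lower. The values of the groups did not overlap for 65.2% of the genes tested.

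The targeted genes were examined first. Prdm14 RNA was at 1.96 and 3.60 RPKM in Prdm14-/- clones G6 and F10 and at 2.52, 2.22 and 2.03 RPKM in FH-Mtgr1 clones A3, C1 and C3. The groups overlapped, with a log2 fold change of 0.21 (SE 0.25, limma adjusted p = 0.523). As RNA with a small deletion is still counted, this level is no check of the knockout. Cbfa2t2 was at 16.6 and 16.8 RPKM in Prdm14-/- cells and at 28.0, 26.7 and 25.5 RPKM in FH-Mtgr1 cells, where reads of the transgene and of the edited gene cannot be told apart. The other ETO genes, Cbfa2t3 and Runx1t1, did not pass the filter.

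Several properties of the libraries moved with the groups. RNAs without a poly(A) tail (191 histone, small nucleolar and similar genes, a set chosen after their values were seen) took 0.00662% and 0.00661% of the reads in the Prdm14-/- libraries but between 0.0364% and 0.124% in the FH-Mtgr1 libraries. Of the 134 that were tested, 91 were called lower and 0 higher. Rmrp, the RNA of RNase MRP, was at 16.3 and 15.9 RPKM in Prdm14-/- cells and at 1996, 440 and 1961 RPKM in FH-Mtgr1 cells. Fold changes also followed base composition: with the genes ordered by transcript GC content in 5 equal bins, their median was -0.30 in the lowest bin and 0.54 in the highest (Spearman rho of 0.419 across 11287 genes, as a description). They followed the difference of Mtgr1-/- clone C3, low in Rmrp (19.3 RPKM), from Mtgr1-/- clones A3 and C1 (295 and 452 RPKM) with a rho of 0.622 across 12479 genes. Those 3 libraries share a genotype and none is among the 5 compared, but they differ by clone. Their chromosome 8 medians, relative to the mean of the 5, were -0.12 in C3 and 0.26 and 0.30 in A3 and C1. The FH-Mtgr1 clones were split alike (-0.22 in C3, 0.27 and 0.26 in A3 and C1). The part of clone in this rho was not tested. The part of library composition in the genotype difference was not separated by the design, so the counts of most gene groups below are also given under 1 or both of 2 further settings, which were added with these values known. An adjustment for GC content and gene length left 4081 of 11287 genes called (36.2%), and 3126 of them were called in the same direction without it. A fit of the 13 serum+LIF libraries with the Rmrp level as a covariate left 105 of 12478 genes called (0.841%), 81 higher and 24 lower, and 101 of them were called in the same direction without the covariate. The slope of the covariate comes from Rmrp differences within groups, and Rmrp hardly differed within Prdm14-/- cells. The widest such difference was that of Mtgr1-/- clone C3 from A3 and C1, which differ by clone as well. A change in this fit can thus hold a clone difference, carried over to the gap between the groups. Rmrp is itself 1 of the 191 RNAs above. A call lost in this fit can come with a smaller fold change, a wider error or both. For Wnt7b the fold change was 3.06 without the covariate and 2.10 with it, and the SE 0.25 and 0.46. Of the gene lists below, the median fold change of basement membrane genes went from 1.01 to 0.35 and that of collagens from 1.09 to 0.40. That of naïve pluripotency genes went from 0.47 to 0.71.

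**Figure D1:**
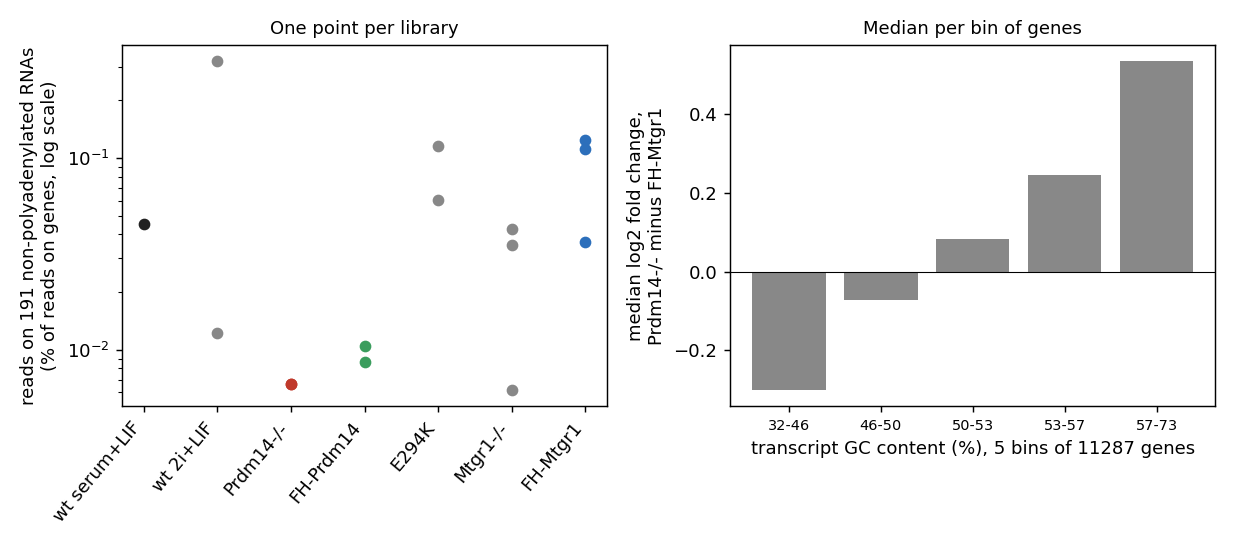
Left, share of reads on 191 RNAs without a poly(A) tail in each of the 15 libraries, on a log scale, 1 point per library (the 2 Prdm14-/- points lie on each other, and E294K is a mutant Prdm14 put back into the knockout). Right, median log2 fold change between Prdm14-/- and FH-Mtgr1 cells in 5 equal bins of 11287 genes ordered by transcript GC content. The Prdm14-/- libraries lie below the FH-Mtgr1 libraries, and the median rises with GC content from -0.30 to 0.54.

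Genes of chromosome 8 stood apart within the reference. Relative to the mean of the 5 libraries, their median was 0.27 and 0.26 on the log2 scale in FH-Mtgr1 clones A3 and C1 and -0.22 in clone C3, over 636 genes. In the Prdm14-/- clones it was -0.12 and -0.20, and in wt cells -0.17. Other chromosomes with at least 100 genes tested had medians between -0.20 and 0.21 in the libraries examined. On chromosome 8, 157 genes were called lower (24.7%) and 76 higher (11.9%), and with clone C3 as the only reference their median fold change turned from -0.21 to 0.18. Y-linked genes differed between clones of one group as well: Eif2s3y was at 0.732 RPKM in G6 and 9.70 RPKM in F10, and at 17.5, 0.0800 and 17.1 RPKM in FH-Mtgr1 clones A3, C1 and C3. In the Mtgr1-/- clones A3, C1 and C3 it was at 0.0274, 18.25 and 5.69 RPKM. For A3 and C1 the low and high levels were thus exchanged between the knockout and rescue libraries of the same name. Whether these clone names stand for the same clone in both groups was not tested.

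Contractile cytoskeleton genes and Hippo pathway genes gave 3 of the 10 highest fold changes, those of Acta1, Thbs1 and Acta2. Acta1, skeletal muscle alpha-actin (chromosome 8, 126415669 to 126418651 in mm9), was at 95.9 and 117 RPKM in Prdm14-/- clones G6 and F10 and at 1.94, 2.82 and 0.950 RPKM in FH-Mtgr1 clones A3, C1 and C3. Both knockout clones lay far above the 3 reference clones, and the fold change was 5.55 (SE 0.30, limma adjusted p = 1.31e-05). Acta2, smooth muscle alpha-actin, was at 28.5 and 27.7 RPKM against 1.61, 2.05 and 1.01 RPKM, a fold change of 3.83 (SE 0.23, limma adjusted p = 2.13e-05). Tagln, an actin-binding protein of smooth muscle, was at 144 and 201 RPKM against 15.7, 19.3 and 11.2 RPKM (3.46, SE 0.23, limma adjusted p = 2.96e-05). Caldesmon (Cald1, 2.48) and tropomyosin 1 (Tpm1, 2.46) rose by similar amounts on the log2 scale. Of the 18 contractile genes in the files 16 passed the filter, and 13 of these were called higher and 0 lower, with a median fold change of 1.35 against 0.06 over all genes tested. After adjustment for GC content and length 11 of 16 were called higher. With the Rmrp covariate 4 were, namely Acta1 (4.09), Tagln (2.49), Cald1 (2.13) and Tpm1 (1.88), whereas Acta2 was at 1.61 (limma adjusted p = 0.235).

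Serum response factor (Srf) and its actin-regulated cofactors are known to act on contractile genes through the CArG box. The RefSeq promoter windows of GRCm38.p6, from 250 bases before to 50 after the start of a gene, were searched for this motif, whose search covers both strands at once as it reads alike on them. It was present for 5 of the 15 contractile genes tested that had a window, against 1.55% of 9301 tested genes and 1.63% of 32851 windows. As Srf is known to act on such genes and is itself listed, a high share goes with the choice of list. It is no result about Prdm14-/- cells. Acta2, Tagln, Cald1 and Tpm1 were not among the 5. This does not show that they lack a CArG box. A box outside the window, a variant of the motif, or a gene without a window would be missed. The matches are shown because most genes of the contractile list were called higher, with the box in capitals, on the strand of the gene, and the levels of the genes not yet described follow them.
Acta1 (chr8:123894829-123894858, minus strand): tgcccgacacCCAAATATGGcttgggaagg
Cnn2 (chr10:79988534-79988563, plus strand): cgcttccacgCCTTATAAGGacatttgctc
Vcl (chr14:20929161-20929190, plus strand): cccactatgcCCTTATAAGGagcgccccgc
Srf (chr17:46556225-46556254, minus strand): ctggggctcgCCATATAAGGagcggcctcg
Srf (chr17:46556205-46556234, minus strand): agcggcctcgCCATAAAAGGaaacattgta
Myl9 (chr2:156775293-156775322, plus strand): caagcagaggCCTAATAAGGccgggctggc
Vcl, Srf and Myl9 were named for this match after their values were seen. Calponin 2 (Cnn2) was at 234 and 208 RPKM in Prdm14-/- cells against 66.8, 73.1 and 63.8 RPKM (1.70, limma adjusted p = 7.47e-05). Vinculin (Vcl), which links actin to adhesion sites, was at 53.9 and 53.7 RPKM against 21.2, 24.1 and 18.6 RPKM (1.32, limma adjusted p = 0.000401). Srf itself was at 47.3 and 39.8 RPKM against 30.9, 31.9 and 28.4 RPKM, a call (0.51, limma adjusted p = 0.0237) that was lost without clone G6, A3 or C1 and turned to -0.18 after adjustment for GC content and length. The myosin light chain gene Myl9 was at 27.2 and 39.3 RPKM against 22.2, 25.4 and 12.9 RPKM, without overlap, and was not called (0.74, limma adjusted p = 0.0556). A match is a description of the letters and not of binding.

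**Figure D2:**
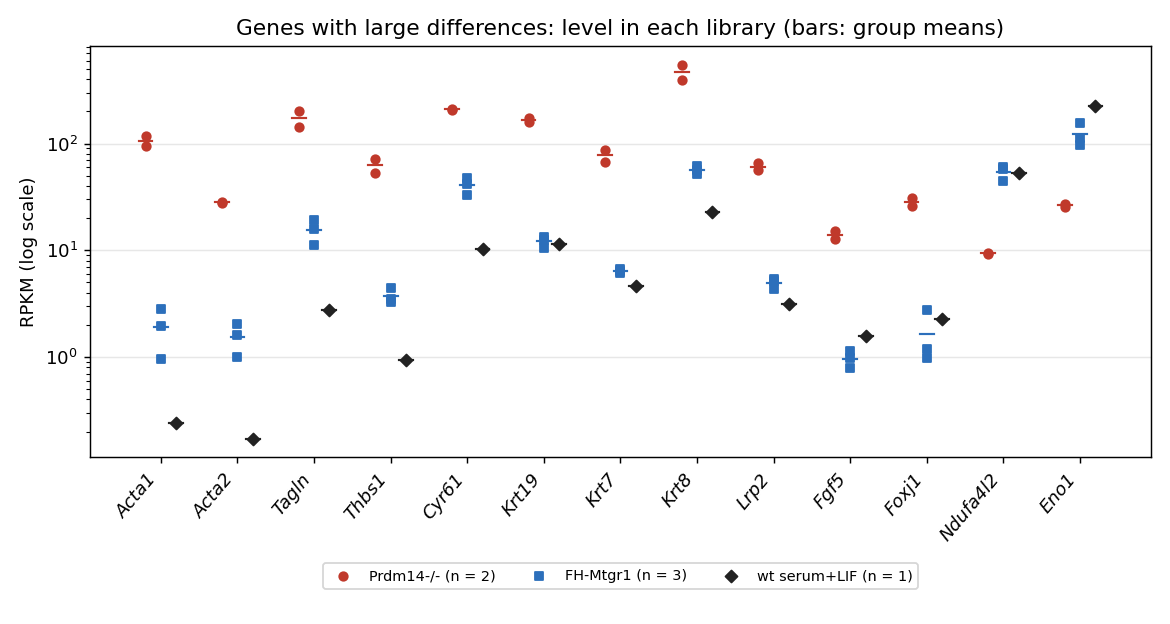
RPKM on a log scale of 13 genes in the 2 Prdm14-/- libraries (circles), the 3 FH-Mtgr1 libraries (squares) and the single wt serum+LIF library (diamond), with bars at the group means. In each of these genes the Prdm14-/- points do not overlap the FH-Mtgr1 points, above them for 11 genes and below them for Ndufa4l2 and Eno1. For Acta1, Acta2, Thbs1, Krt19 and Foxj1 this was a condition of the rule that named them, and it held for 65.2% of all genes tested.

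The Hippo pathway restrains the coactivators Yap and Taz, which act through Tead factors. The list holds targets of Yap and Taz together with pathway genes, among them Yap1 itself (0.80), its DNA-binding partner Tead1 (1.24) and the kinase gene Lats2 (2.09). All 10 listed genes passed the filter and were called higher, with a median fold change of 1.84. Thbs1, thrombospondin 1, was at 72.3 and 53.5 RPKM in Prdm14-/- cells and at 3.27, 4.44 and 3.47 RPKM in FH-Mtgr1 cells (3.90, SE 0.20, limma adjusted p = 7.92e-06). Cyr61, a secreted matrix protein, was at 212 and 206 RPKM against 41.6, 47.6 and 32.7 RPKM (2.37, SE 0.18, limma adjusted p = 4.52e-05). The groups were well separated in both genes, and the wt library lay below the FH-Mtgr1 libraries, at 0.934 RPKM for Thbs1 and 10.3 RPKM for Cyr61. The receptor tyrosine kinase gene Axl (2.80) and the muscle ankyrin repeat gene Ankrd1 (2.34) were also called. Ankrd1 was at no more than 4.35 RPKM and passed the filter only through the Prdm14-/- libraries, where it was high. After adjustment for GC content and length 9 of 9 genes of the list with a GC value were called higher, and with the Rmrp covariate 2 of 10, Thbs1 (2.55) and Cyr61 (1.38). In FH-Prdm14 cells, which are the same Prdm14-/- clones with a tagged Prdm14 transgene and as low in Rmrp (11.3 and 13.8 RPKM), Thbs1 was at 1.65 and 0.858 RPKM, Acta1 at 3.22 and 1.45 RPKM and Tagln at 8.54 and 5.32 RPKM.

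Keratins and parts of the epithelial adhesion machinery were higher in Prdm14-/- cells. Krt19 (chromosome 11, 100002124 to 100009979 in mm9), a keratin of simple epithelia and extraembryonic endoderm, was at 174 and 158 RPKM in G6 and F10 and at 12.4, 13.4 and 10.6 RPKM in A3, C1 and C3. Its fold change was 3.73 (SE 0.16, limma adjusted p = 7.92e-06). Krt7 was at 87.2 and 67.4 RPKM against 6.45, 6.06 and 6.64 RPKM (3.49, SE 0.17, limma adjusted p = 7.92e-06). Krt8, the partner of Krt18 in the first keratin filaments of the embryo, was at 549 and 396 RPKM against 52.2, 57.0 and 62.0 RPKM (3.02, SE 0.17, limma adjusted p = 1.57e-05). Both clones exceeded the reference in these 3 genes, which stayed past the threshold with the Rmrp covariate (3.14, 3.13 and 2.18). Krt18 rose less (1.47, limma adjusted p = 0.000559). Of 48 keratin genes in the files 10 passed the filter, and 7 were called higher and 2 lower, with a median of 1.41 and the same counts after adjustment for GC content and length. With the Rmrp covariate 3 were higher and 0 lower.

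Among 13 junction and keratin genes of epithelia, 8 were called higher and 0 lower (median 1.00), a list that shares Krt8 and Krt18 with the keratins. Desmoplakin (Dsp), which ties keratins to desmosomes, was at 33.5 and 21.5 RPKM against 3.67, 4.64 and 2.28 RPKM (2.81, SE 0.28, limma adjusted p = 0.00017). The related plakoglobin gene Jup had a fold change of 1.54. The classical epithelial genes Cdh1 and Epcam were among the 5 that were not called. Perp, a desmosomal membrane protein that stands in another list, had a fold change of 2.18. After adjustment for GC content and length, 6 junction and keratin genes were called higher and 1 lower, and with the Rmrp covariate 1 was called higher.

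**Figure D3:**
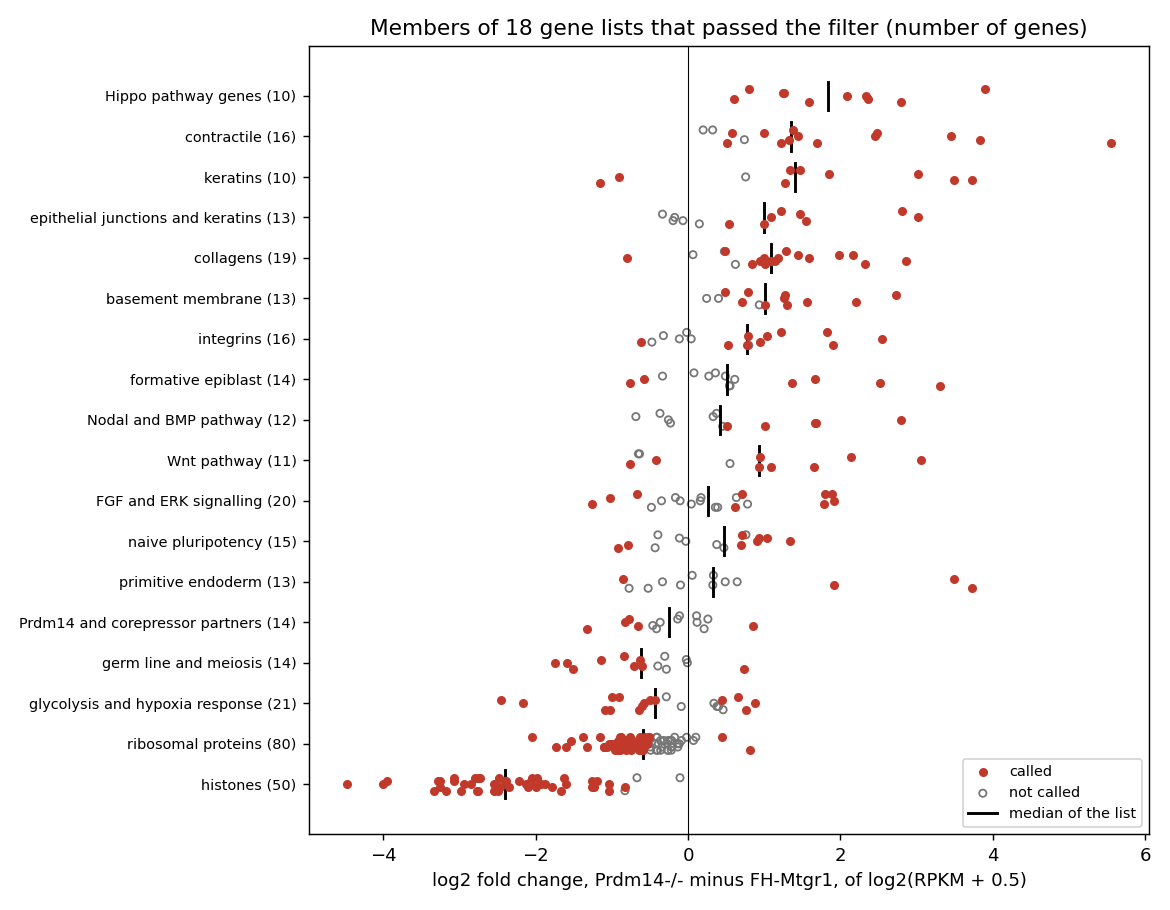
Log2 fold changes between Prdm14-/- and FH-Mtgr1 cells of the members of 18 gene lists that passed the filter, 1 point per gene (filled if called), with the median of each list as a vertical line and the number of genes in brackets. All 10 Hippo pathway genes lie above 0, with a median of 1.84, and all 50 histone genes lie below 0, with a median of -2.40.

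Most listed genes of the extracellular matrix were called higher as well. Hspg2, the basement membrane proteoglycan perlecan, was at 227 and 161 RPKM in Prdm14-/- cells and at 28.4, 31.0 and 25.9 RPKM in FH-Mtgr1 cells (2.73, SE 0.18, limma adjusted p = 2.72e-05), which became 1.81 after adjustment for GC content and length. Agrin (Agrn, 2.21) and the laminin alpha 5 gene Lama5 (1.57) were called as well. Of 13 basement membrane genes 10 were called higher and 0 lower (median 1.01), 7 after adjustment for GC content and length and 0 with the Rmrp covariate. Collagens had 15 members called higher and 1 lower of the 19 that passed the filter (median 1.09), against 6 and 1 of 18 after adjustment for GC content and length and 1 and 0 with the Rmrp covariate. The highest fold change among them was that of the cartilage collagen Col2a1, at 27.9 and 20.5 RPKM against 2.64, 3.14 and 2.85 RPKM (2.86, SE 0.19, limma adjusted p = 2.91e-05), and 2.67 with the Rmrp covariate. Of 16 genes with an integrin symbol 9 were called higher and 1 lower, the latter Itgb1bp1, which encodes a protein that binds integrins. Itga3, an alpha chain of laminin receptors, was at 103 and 59.1 RPKM against 12.2, 15.4 and 11.3 RPKM (2.55, SE 0.24, limma adjusted p = 0.000113). Itgb4, the beta chain of the integrin of hemidesmosomes, had a fold change of 1.90 and levels no higher than 15.1 RPKM. After adjustment for GC content and length 7 genes of this list were called higher and 0 lower, and with the Rmrp covariate 1 and 0.

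Epiblast genes gave a divided picture. Fgf5 (chromosome 5, 98683203 to 98706049 in mm9), the growth factor that marks exit from the naïve state, was at 15.3 and 12.8 RPKM in G6 and F10 and at 0.782, 1.15 and 0.973 RPKM in A3, C1 and C3. The fold change of 3.31 (SE 0.20, limma adjusted p = 2.23e-05) was 3.36 with the Rmrp covariate (limma adjusted p = 0.00219) and 3.42 after adjustment for GC content and length. Pou3f1 (Oct6) was at 130 and 114 RPKM against 21.1, 21.3 and 20.2 RPKM (2.52, SE 0.14, limma adjusted p = 1.54e-05), a gene rich in GC whose value was 1.80 after that adjustment and 1.05 with the covariate (limma adjusted p = 0.248). Sox3 was at 24.0 RPKM in G6 and 9.39 RPKM in F10, against 4.70, 4.29 and 4.22 RPKM. Its fold change rested in part on which clone was kept, at 1.01 without G6 and 2.32 without F10, and it was called (1.67, limma adjusted p = 0.00339) but not after adjustment for GC content and length (0.62, limma adjusted p = 0.0981). Sall2 was called in both (1.37 and 1.02). The homeobox gene Otx2 was at 34.2 and 57.1 RPKM against 64.4, 71.0 and 64.2 RPKM and was called lower (-0.58, limma adjusted p = 0.0462), a call that was lost when any 1 of G6, A3, C1 and C3 was left out (-0.22 without G6, -0.95 without F10). Dnmt3b, the de novo DNA methyltransferase, was at 131 and 81.4 RPKM against 116, 107 and 74.8 RPKM, with overlapping groups and a fold change of 0.08 (SE 0.24, limma adjusted p = 0.818). Wnt8a was not called either (0.55, limma adjusted p = 0.158), although without C3 it was (0.84, limma adjusted p = 0.0129). In all, 4 of the 14 formative epiblast genes were called higher and 2 lower (median 0.52), where 23.7% and 17.5% of all genes tested were. The counts were 4 and 3 after adjustment for GC content and length and 1 and 0 with the Rmrp covariate.

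Single genes of the Nodal, BMP, Wnt and LIF pathways were among those called, in lists of which other members were not. Lefty2, an inhibitor of Nodal that Nodal itself induces, was at 42.4 and 39.3 RPKM against 7.57, 5.75 and 3.70 RPKM (2.79, SE 0.25, limma adjusted p = 9.52e-05), and Lefty1 had a fold change of 1.67. The ligand gene Bmp4 was at 13.1 and 9.89 RPKM against 2.58, 2.96 and 4.34 RPKM (1.67, SE 0.23, limma adjusted p = 0.000795). Of 12 Nodal and BMP pathway genes 5 were called higher and 0 lower (median 0.41), and 3 and 1 after adjustment for GC content and length. In the Wnt list, 6 of 11 genes that passed the filter were called higher and 2 lower, and 4 and 4 after that adjustment. The ligand gene Wnt7b was at 19.4 and 17.4 RPKM against 1.26, 1.61 and 2.63 RPKM (3.06, SE 0.25, limma adjusted p = 6.1e-05), and Wnt4 had a fold change of 2.13. In FH-Prdm14 cells Wnt7b was at 20.2 and 23.0 RPKM and Bmp4 at 13.4 and 13.9 RPKM, close to the Prdm14-/- levels. Pim3, a kinase gene induced by LIF and Stat3, was at 285 and 291 RPKM against 88.2, 83.6 and 82.8 RPKM (1.75, limma adjusted p = 4.89e-05), in a list of 8 LIF and Stat3 pathway genes with 2 called higher and 0 lower, and 1 and 2 after that adjustment. With the Rmrp covariate, 0 genes of the Nodal and BMP, Wnt and LIF lists were called, Wnt7b being at 2.10 (SE 0.46, limma adjusted p = 0.0639) and Lefty2 at 1.79 (SE 0.45, limma adjusted p = 0.0947).

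Fgfr2, a receptor that Prdm14 is known to repress, was at 14.6 and 12.2 RPKM in Prdm14-/- cells and at 2.44, 3.05 and 4.28 RPKM in FH-Mtgr1 cells. The groups did not overlap, which held for 65.2% of all genes tested. The fold change of 1.91 (SE 0.23, limma adjusted p = 0.000399) was 1.66 after adjustment for GC content and length and 1.54 with the Rmrp covariate (limma adjusted p = 0.113). Spry1, a feedback inhibitor of receptor tyrosine kinases, was at 60.6 and 57.1 RPKM against 15.3, 16.8 and 18.2 RPKM (1.78, SE 0.15, limma adjusted p = 7.08e-05). Phlda1, a gene induced by ERK, was at 27.7 and 40.5 RPKM against 5.61, 7.36 and 15.7 RPKM (1.89, SE 0.36, limma adjusted p = 0.00326), with an adjusted p of 0.052 in limma without F10. Of the 20 FGF and ERK genes 6 were called higher and 3 lower (median 0.26), where 23.7% and 17.5% of all genes tested were. The same numbers were called after adjustment for GC content and length, and 0 with the Rmrp covariate.

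Pluripotency genes did not move in one direction. In bulk RNA, fewer cells of a kind and less RNA per cell cannot be told apart. Pou5f1 (Oct4) was at 309 and 395 RPKM in Prdm14-/- cells and at 603, 631 and 647 RPKM in FH-Mtgr1 cells, below all reference clones (-0.84, SE 0.16, limma adjusted p = 0.00311). Sox2 lay above them, at 286 and 346 RPKM against 162, 152 and 188 RPKM (0.91, SE 0.16, limma adjusted p = 0.00227). Nanog was at 77.5 and 90.2 RPKM against 57.9, 52.4 and 45.1 RPKM (0.69, SE 0.16, limma adjusted p = 0.00788), and its adjusted p in limma was 0.0513 without F10. Klf4, a naïve factor, was at 15.8 and 15.6 RPKM against 7.24, 7.26 and 7.61 RPKM (1.04, SE 0.15, limma adjusted p = 0.00106). Klf2 was at 78.2 and 85.9 RPKM against 50.7, 38.7 and 16.6 RPKM (1.34, limma adjusted p = 0.0176), lies on chromosome 8, where C3 was lower than A3 and C1, was at 0.88 without C3, and was no longer called without G6, without F10 or after adjustment for GC content and length (0.72, limma adjusted p = 0.177).

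The wt library changed this order. Klf4 was at 28.0 RPKM there, Klf2 at 112 RPKM, Nanog at 91.2 RPKM and Sox2 at 304 RPKM, so that the FH-Mtgr1 clones lay below wt cells in each of these genes. Against the single wt library the fold changes were -0.82 for Klf4, -0.45 for Klf2, -0.12 for Nanog and 0.05 for Sox2. The median of the 15 naïve genes against it was -0.67. These are effect sizes only, as 1 wt library gives no spread. Against FH-Mtgr1 cells, 6 naïve genes were called higher and 2 lower (median 0.47), 4 and 3 of 14 after adjustment for GC content and length and 0 with the Rmrp covariate. Of 12 general pluripotency genes, which include Pou5f1 and Sox2, 4 were called higher and 1 lower (median 0.29), 3 and 2 after that adjustment and 0 with the covariate. Tbx3 was at 10.1 and 10.6 RPKM against 15.2, 17.0 and 31.2 RPKM (-0.92, SE 0.27, limma adjusted p = 0.0231), and Tet2, which oxidizes methylated cytosine, at 2.86 and 4.40 RPKM against 6.29, 6.36 and 6.89 RPKM (-0.79, SE 0.21, limma adjusted p = 0.0136). Both were below all reference clones, but Tbx3 was no longer called without G6 or F10 (and was at -0.61 without C3), and Tet2 not without G6 (-0.52). Esrrb was at 38.9 and 54.6 RPKM against 32.6, 30.1 and 37.1 RPKM (0.47, SE 0.18, limma adjusted p = 0.0622). The wt level of Esrrb was 92.2 RPKM, and against wt the fold change was -0.99. Zfp42 (Rex1) differed between the knockout clones, at 59.1 RPKM in G6 and 126 RPKM in F10, and enclosed the reference range of 84.5 to 94.7 RPKM (-0.03, limma adjusted p = 0.942).

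**Figure D4:**
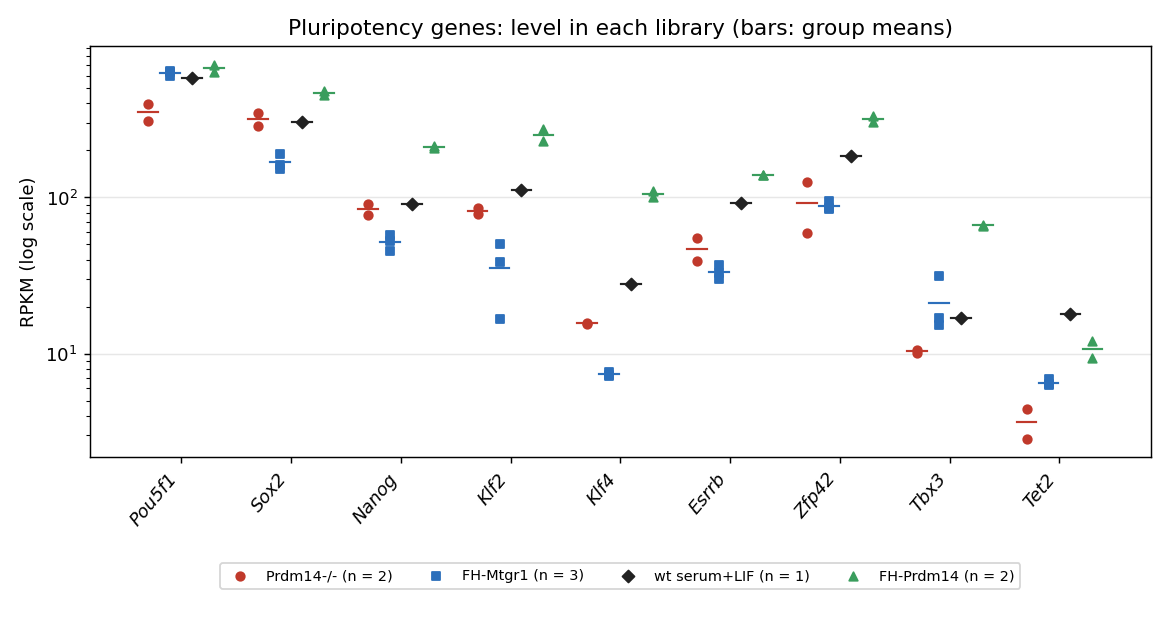
RPKM on a log scale of 9 pluripotency genes in Prdm14-/- (circles), FH-Mtgr1 (squares), wt serum+LIF (diamond) and FH-Prdm14 (triangles, cells that overexpress Prdm14) libraries, with bars at the group means. For Klf2, Klf4 and Nanog the FH-Mtgr1 points lie below the Prdm14-/- points, and the wt point lies above both groups for Klf4, at 28.0 RPKM, and for Klf2, at 112 RPKM.

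Over all 5141 called genes the wt library was nearer to the FH-Mtgr1 mean than to the Prdm14-/- mean for 3927 genes (76.4%), and for 83.0% of the 1863 genes that were at least 2-fold apart. For Klf2, Klf4, Nanog, Sox2 and Esrrb the wt level was nearer to that of the Prdm14-/- clones, so that for these genes the reference did not have the wild-type-like level its label gives.

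Markers of other lineages were mixed. Lrp2 (megalin), an endocytic receptor of the visceral endoderm, was at 65.7 and 56.2 RPKM in Prdm14-/- cells and at 4.37, 5.37 and 5.20 RPKM in FH-Mtgr1 cells (3.49, SE 0.17, limma adjusted p = 7.92e-06), and was 2.80 with the Rmrp covariate. With Krt19 and Fgfr2 it made up the 3 primitive endoderm genes called higher of 13 that passed the filter, a share close to the 23.7% of all genes tested. The same number was called higher after adjustment for GC content and length, with 2 lower of 12, and 2 were called higher with the Rmrp covariate. The reference was above the wt library in this list. Its summed level was 918 and 649 RPKM in Prdm14-/- cells, 262, 318 and 603 RPKM in FH-Mtgr1 cells and 74.5 RPKM in wt cells. Most of this sum was H19 in each of these libraries, so it is mainly a measure of that RNA. The median fold change of the list was 0.325 against FH-Mtgr1 cells and 1.06 against the single wt library. Pdgfra was called lower (-0.86, limma adjusted p = 0.0363), a call lost without G6 (-0.51), C1 or C3. The defining factors Gata4 (1.78 and 5.69 RPKM against 4.02, 5.61 and 5.21), Gata6 (1.54 and 4.68 against 1.88, 3.20 and 4.28) and Sox17 (0.800 and 2.68 against 0.726, 0.990 and 1.17) overlapped between the groups and were lower in G6 than in F10. Sparc, a matrix protein of parietal endoderm, was at 139 and 152 RPKM against 75.5, 85.3 and 92.0 RPKM (0.79, limma adjusted p = 0.00311). H19 was at 646 and 389 RPKM against 222, 268 and 555 RPKM and was not called (0.65, limma adjusted p = 0.171), while without C3 it was (1.04, limma adjusted p = 0.0088). The wt library had 43.7 RPKM of H19, and against it the fold change was 3.51.

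In the trophoblast list, 5 of 9 genes that passed the filter were called higher and 0 lower, Krt7, the transcription factor Tfap2c (0.97), Rhox6, Rhox9 and the imprinted gene Peg10. After adjustment for GC content and length 4 of 8 were called higher, and 1 with the Rmrp covariate. Peg10 was at 290 and 128 RPKM against 65.0, 64.5 and 51.8 RPKM (1.67, limma adjusted p = 0.00221), and its fold change was 1.08 without G6 and 2.26 without F10. The defining genes Cdx2 and Elf5 were below the filter, with Cdx2 at no more than 0.724 RPKM and Elf5 at no more than 0.139 RPKM. Of 12 mesendoderm genes 3 passed the filter, Eomes, Gsc and Wnt3, at no more than 5.50 RPKM. All 3 were called higher, 1 after adjustment for GC content and length and 0 with the Rmrp covariate. Gsc and Wnt3 reached 1 RPKM only in Prdm14-/- libraries. They passed the filter through the group where they were high, so this count is no result about the list. Eomes was at 5.50 and 4.76 RPKM against 2.54, 2.60 and 2.28 RPKM (0.92). Gsc was at 1.40 and 1.46 RPKM against 0.185, 0.321 and 0.335 RPKM (1.31), while brachyury (T), which did not pass, had at most 0.691 RPKM. Fibroblast markers had a summed level of 33.6 and 22.1 RPKM in Prdm14-/- cells and of 31.9, 27.9 and 23.8 RPKM in FH-Mtgr1 cells over the 5 genes of 10 that passed the filter. Of these, 3 collagen genes were called higher, Col5a1 (2.16) among them, and Thy1 lower (-1.10). Another of the 3, Col6a1, reached 1 RPKM only in Prdm14-/- libraries and so passed the filter through them. Dcn and Postn were at 0 RPKM in both Prdm14-/- clones, and Lum in F10, with at most 0.0905, 0.0238 and 0.0416 RPKM elsewhere in these libraries. Of 5 mesenchymal genes that passed the filter, 2 were called in each direction. Of 2 neuroectoderm genes that passed the filter 1 was called higher, while Pax6 and Sox1 were at no more than 0.768 and 0.367 RPKM.

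Other genes among the 10 highest fold changes belonged to no list. Foxj1, the master regulator of motile cilia, was at 30.9 and 25.8 RPKM in Prdm14-/- cells and at 1.18, 0.969 and 2.77 RPKM in FH-Mtgr1 cells (3.84, SE 0.31, limma adjusted p = 6.24e-05), and its level in the Mtgr1-/- clones was 2.33, 2.73 and 3.25 RPKM. Fgfbp1, a carrier that releases FGFs from the matrix, was at 18.9 and 23.0 RPKM against 1.22, 0.642 and 1.51 RPKM (3.75, SE 0.26, limma adjusted p = 3.05e-05). Anxa3, a calcium-dependent membrane-binding protein, was at 46.9 and 32.5 RPKM against 2.27, 2.42 and 4.03 RPKM (3.57, SE 0.25, limma adjusted p = 3.68e-05). All 3 remained past the threshold with the Rmrp covariate (3.90, 4.30 and 3.07). In Mtgr1-/- cells, Fgf5 was at 7.45, 5.68 and 5.71 RPKM, Col2a1 at 4.31, 4.07 and 4.32 RPKM and Krt19 at 157, 155 and 210 RPKM, levels given without a test of their difference from Prdm14-/- cells.

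**Figure D5:**
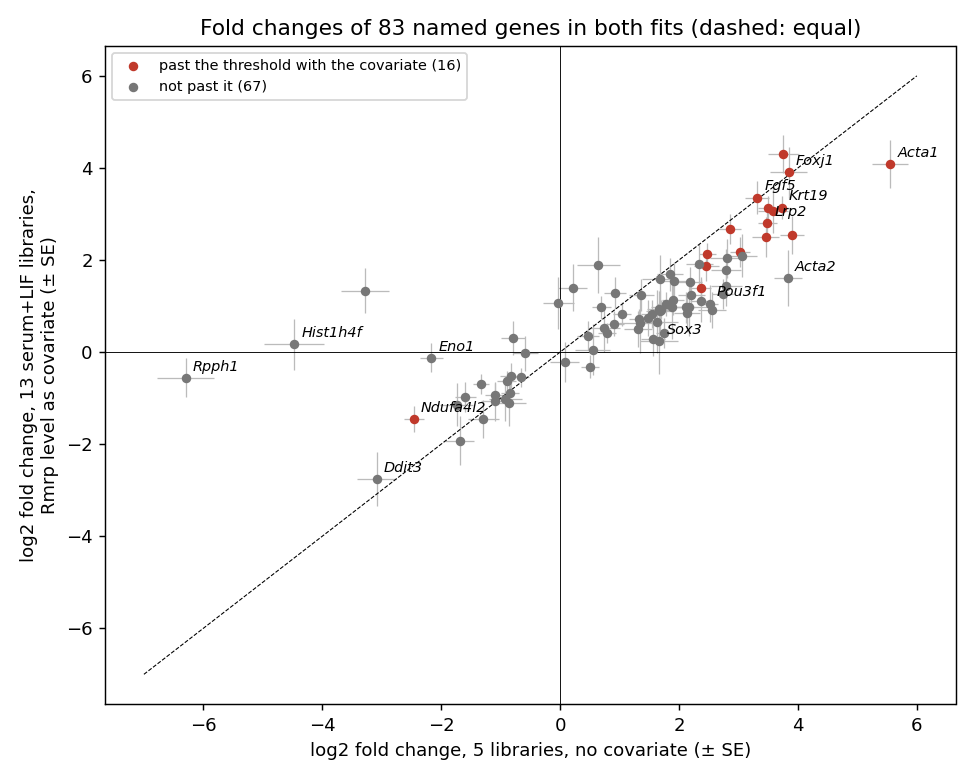
Log2 fold change of 83 named genes without a covariate in 5 libraries (horizontal) and with the Rmrp level as a covariate in 13 serum+LIF libraries (vertical), with bars of 1 SE and a dashed line where both are equal. Of these genes, 16 are past the threshold with the covariate, Acta1, Krt19, Lrp2, Fgf5 and Foxj1 among them, while Rpph1, Hist1h4f and Eno1 lie between -0.56 and 0.17 on the vertical axis. Rpph1 and Hist1h4f belong to the same set of RNAs as Rmrp, so their smaller values are no independent result.

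Among chromatin genes, 2 subunits of a Polycomb complex were called lower, while Eed (-0.46, limma adjusted p = 0.0787) and Jarid2 (0.26) of the same list were not called. Ezh2, the methyltransferase of Polycomb repressive complex 2, was at 35.7 and 34.0 RPKM in Prdm14-/- cells and at 88.8, 86.5 and 89.0 RPKM in FH-Mtgr1 cells (-1.33, SE 0.13, limma adjusted p = 0.000188). Its partner Suz12 was at 48.8 and 55.8 RPKM against 78.5, 95.2 and 109 RPKM (-0.83, SE 0.17, limma adjusted p = 0.00463) and was at -0.54 after adjustment for GC content and length (limma adjusted p = 0.0263). Adjustment for GC content alone gave -0.44, which was not called (limma adjusted p = 0.0552). The adjusted p of Suz12 in limma was 0.0545 without G6. Of 14 Prdm14 partner and corepressor genes that passed the filter, 4 were called lower and 1 higher (median -0.25), 5 and 0 after adjustment for GC content and length, and 0 with the Rmrp covariate, where Ezh2 was at -0.69 (limma adjusted p = 0.158). The genes for histone deacetylases Hdac1, Hdac2 and Hdac3 were not called. Of 8 DNA methylation genes, 1 was called in each direction, and 3 lower and 0 higher after adjustment for GC content and length.

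Of the 14 listed germ line and meiosis genes, 8 were called lower and 1, Dazl (0.74), higher. Mael, a piRNA pathway protein, was at 14.1 and 17.3 RPKM in Prdm14-/- cells and at 47.6, 42.1 and 55.3 RPKM in FH-Mtgr1 cells (-1.59, SE 0.17, limma adjusted p = 0.00026). Hormad1, a protein of meiotic chromosomes, was at 1.12 and 2.60 RPKM against 6.69, 6.22 and 8.23 RPKM (-1.74, SE 0.27, limma adjusted p = 0.00138). The median of the list was -0.62, and 4 genes were called lower and 1 higher after adjustment for GC content and length and 0 with the Rmrp covariate. Piwil2 (-0.01) and Tdrd1 (-0.02) were among the 5 not called. Among 6 primordial germ cell genes 3 were called higher, such as Dnd1, an RNA-binding protein of germ cells (32.1 and 28.7 RPKM against 6.71, 6.22 and 6.90 RPKM, 2.12, limma adjusted p = 4.52e-05). Of 39 Hox genes 6 passed the filter, and 5 were called lower, 6 after adjustment for GC content and length and 0 with the Rmrp covariate. Hoxd4 (-1.29) was at no more than 1.05 RPKM in the libraries compared. Hoxd4, Hoxb13, Hoxd1 and Hoxd13 reached 1 RPKM only in FH-Mtgr1 libraries. They passed the filter through the group where they were high, so the count called lower is no result about the Hox genes. Of 4 Rhox genes 2 were called higher and 1 lower.

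Imprinted genes were split. Of the 17 that passed the filter 5 were called higher and 5 lower, where 23.7% and 17.5% of all genes tested were. After adjustment for GC content and length the counts were 5 and 4 of 14, and with the Rmrp covariate 1 and 1. Nnat was at 89.4 and 69.5 RPKM in Prdm14-/- cells and at 14.1, 13.5 and 17.5 RPKM in FH-Mtgr1 cells (2.37, SE 0.18, limma adjusted p = 4.77e-05). Igf2 was at 21.2 and 12.7 RPKM against 3.32, 4.27 and 8.36 RPKM (1.64, SE 0.34, limma adjusted p = 0.00511), with an adjusted p of 0.0953 in limma without G6. Cdkn1c, a cell cycle inhibitor, was at 10.5 and 5.17 RPKM against 25.5, 25.7 and 24.0 RPKM (-1.69, SE 0.25, limma adjusted p = 0.00102), whereas the wt library had 13.4 RPKM.

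Genes of glycolysis and the response to low oxygen were mostly lower. Eno1 (enolase) was at 25.3 and 27.3 RPKM in Prdm14-/- cells and at 155, 97.3 and 114 RPKM in FH-Mtgr1 cells (-2.16, SE 0.20, limma adjusted p = 0.000102). This value was -0.12 with the Rmrp covariate, and Eno1 was at 25.4 RPKM in Mtgr1-/- clone C3 against 78.9 and 76.9 RPKM in A3 and C1, and at 20.9 and 23.9 RPKM in FH-Prdm14 cells. Eno1 is known to have near-identical copies in the genome, between which the counting could split reads. Ndufa4l2, a mitochondrial protein induced by hypoxia, was at 9.32 and 9.39 RPKM against 58.0, 44.4 and 60.4 RPKM (-2.46, SE 0.17, limma adjusted p = 3.53e-05) and was -1.46 with the covariate (limma adjusted p = 0.0463). Gapdh (-0.90, limma adjusted p = 0.00299) and Bnip3 (-1.09, limma adjusted p = 0.00645, not called without G6) were lower as well. Of 21 genes 11 were called lower and 4 higher (median -0.44), 11 and 3 after adjustment for GC content and length, and 1 and 0 with the covariate. Ddit3 (Chop), a transcription factor of the stress response that was named after its value was seen, was at 4.55 and 8.32 RPKM against 50.4, 40.2 and 87.7 RPKM (-3.09, SE 0.33, limma adjusted p = 0.00023). Of 19 cholesterol synthesis genes 3 were called higher and 0 lower, and of 12 p53 targets 2 higher and 0 lower. Neither of the 2 genes of the 2-cell-like state that passed the filter was called.

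The largest decreases belonged to RNAs without a poly(A) tail, which are those whose share of the reads separated the libraries. All 10 genes with the lowest fold changes by the naming rule were of this kind. Rpph1, the RNA of RNase P, was at 2.92 and 5.75 RPKM in Prdm14-/- cells and at 552, 161 and 535 RPKM in FH-Mtgr1 cells (-6.30, SE 0.48, limma adjusted p = 4.89e-05). Rmrp had a fold change of -6.18 (SE 0.54, limma adjusted p = 8.8e-05). Hist1h4f, a histone H4 gene, was at 0.723 and 0.218 RPKM against 42.3, 9.35 and 20.9 RPKM (-4.47, SE 0.50, limma adjusted p = 0.00032). The histone H1 gene Hist1h1d had a fold change of -3.28. Of 50 histone genes that passed the filter 47 were called lower and 0 higher (median -2.40), and with the Rmrp covariate 0 were lower and 1 higher. Some of them, such as Hist1h4f, reached 1 RPKM only in FH-Mtgr1 libraries. Rmrp itself belongs to the RNAs without a poly(A) tail, so the loss of these calls in that fit is no independent result. In FH-Prdm14 cells Rpph1 was at 6.47 and 8.51 RPKM and Hist1h4f at 1.96 and 1.54 RPKM, within a few RPKM of the Prdm14-/- clones. Of 80 ribosomal protein genes, which are short, 46 were called lower and 2 higher (median -0.60), against 22 lower and 3 higher of 77 after adjustment for GC content and length and 0 of either with the Rmrp covariate. Against the single wt library the median of the ribosomal protein genes turned to 0.33. Of 79 respiratory chain genes 38 were called lower and 3 higher (median -0.50), against 17 and 11 after that adjustment and 1 and 0 with the covariate. Their median against the single wt library turned too, to 0.09. How far library composition enters these differences was not tested beyond these settings.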

How the data were processed

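RNA was selected with oligo-dT beads and sequenced as single-end reads by the authors. By the study's methods, reads were aligned to mm9 with Tophat, counted on RefSeq genes with HTSeq and deposited by the authors as RPKM, with gene length, for 24015 genes. The submitters' processing notes name GRCm38 beside mm9, without a role. NextSeq and HiSeq instruments with different read lengths were used, and which library ran on which is not given in the sources used here. Multiplied by length, 100% of the values gave whole reads within 0.001. From 11596927 to 21218414 reads per library were computed back, which limits the precision of genes at few reads. Genes at 1 RPKM or more in 2 or more of the 5 libraries were fitted, on log2(RPKM + 0.5), with limma 3.58.1 in R 4.3.3 (lmFit, eBayes with trend; 3 residual degrees of freedom, threshold 0.05, Benjamini-Hochberg), after the fit was tested on simulated data. Genes were named by rule: the 10 largest fold changes per direction among called genes with non-overlapping groups and mean RPKM of at least 5, the targeted genes, 12 markers, up to 4 called and 4 most abundant members of each of 35 lists, and 5 genes that differ between G6 and F10. Members and lists were chosen with earlier results of these data known. Alternatives were other pseudocounts (0.1 and 1), filters, scaling, samples in the fit, references, voom on the reads and adjustment for GC content. Adjustment for GC content and length, the Rmrp covariate and clone C3 as the only reference were added after the data were seen. GC content was taken from GENCODE transcripts of NCBIM37 (mm9), and promoters from RefSeq (GRCm38.p6). No pair of libraries agreed within sampling noise. ChIP-seq (11 samples) was not analysed here. GC content was found for 11287 of 12479 genes. Some genes that the rule names are not reported here.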

Additional observations from a re-analysis of the deposited data

How the results depend on the processing

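No paired analysis was possible because the compared groups share no clone. The numbers of genes called, called higher and called lower stayed within 1.5 times of 5141, 2961 and 2180 under the other settings except these: with the Rmrp covariate they were 105, 81 and 24, against the wt library 1748 were higher, and with C3 as the only reference 1300 were lower. Leaving out 1 library gave 2503 to 5238 called, 1591 to 2980 higher and 912 to 2258 lower, the lowest without G6 (2503, 1591 and 912). Directions turned for these genes (log2 fold change). Against the wt library Prdm14 was at -0.041, Dnmt3b -0.53, Pdgfra 0.27, Esrrb -0.99, Klf2 -0.45, Klf4 -0.82 and Nanog -0.12, and against FH-Mtgr1 and wt together Dnmt3b was at -0.075. Adjusted for GC content, Dnmt3b was at -0.084, Zfp42 at 0.083 and Srf at -0.090, and for GC content and length at -0.18, 0.15 and -0.18. With the Rmrp covariate Dnmt3b was at -0.21, Zfp42 1.07, Tet2 0.31, Hist1h4f 0.17, Hist1h1d 1.33 and Srf -0.32. With C3 as the only reference Wnt8a was at -0.031, H19 at -0.14 and Zfp42 at 0.014. Leaving out 1 library gave -0.16 to 0.58 for Prdm14, -0.26 to 0.42 for Dnmt3b and -0.57 to 0.51 for Zfp42. The causes were not tested. Over 84 genes and all settings, 1418 values kept direction and side of the threshold, 113 lost the call, 18 gained it and 28 reversed. With 2 and 3 clones per group and depths of 11596927 to 21218414 reads, genes near 1 RPKM are the least precise.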

Other observations

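The 2 Prdm14-/- clones differed from each other in 30 genes by more than 2 on the log2 scale, 5 higher in G6 and 25 higher in F10, and 7 of the 30 are among the genes called between the groups. The genes with the largest differences were short RNAs and a Y-linked gene. Snord49a, a small nucleolar RNA, was at 0 RPKM in G6 and 5.03 RPKM in F10, Snord2 at 0 and 4.58 RPKM, Snord69 at 0 and 3.96 RPKM and Mir6991 at 0 and 3.34 RPKM. Eif2s3y was at 0.732 and 9.70 RPKM. Snord2 was at 5.33, 0 and 2.31 RPKM in FH-Mtgr1 clones A3, C1 and C3. Of the longer RNAs, Gpx2, a glutathione peroxidase gene, was at 6.22 RPKM in G6 and 29.2 RPKM in F10 and at 11.1, 10.3 and 9.57 RPKM in the FH-Mtgr1 clones. Sfmbt2, a Polycomb group gene, was at 14.5 and 2.86 RPKM against 0.984, 1.11 and 2.30 RPKM. The last 2 genes were chosen after their values were seen. With 1 library per clone these differences have no test.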
